A study of Homo sapiens with 6 samples.

Results

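The p53 protein is a transcription factor that binds the DNA of its target genes when DNA damage or other stress stabilises it. Its core feedback and arrest genes, MDM2 and CDKN1A, act beside a wide set of further targets that repair DNA, supply nucleotides, slow the cell cycle, set the threshold for cell death or change lipid and RNA metabolism. That wider set is described here: 37 known p53 targets of repair, signalling and metabolism, a list drawn from general knowledge of p53 but put together with earlier results of these data known. They were followed in U2OS cells, an established human osteosarcoma line known for a functional p53.

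One group of U2OS cells received a mimic of miR-542-3p, measured on 3 arrays, and the other a negative control mimic, also measured on 3 arrays, with RNA taken 48 h after transfection. A mimic is a synthetic RNA that stands in for the mature microRNA. Both groups share the cell line, the transfection and the time, and differ, by the labels, in the mimic alone. The labels number the samples but do not say whether they were separate cultures, so p-values reflect only how these samples differ among themselves, and that spread may be technical in origin.

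Signal is given on the log2 scale after background correction and quantile normalization, so that a difference of 1 is a 2-fold change, and each gene is read from its brightest detected probe. A probe counted as detected on an array at a detection p under 0.05, and a gene as measured with such a probe on at least 3 of the 6 arrays. A gene was called higher or lower with the mimic at a Benjamini-Hochberg adjusted p under 0.05 in limma, fitted on 14775 rows. Of the 37 targets, 32 were measured among 10734 genes in all. BTG2 and FDXR had no probe listed and were not analysed here, and PLK3, SPATA18 and RAP2B were too dim.

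Expression of 25 of the 32 measured targets rose with the mimic, none fell and 7 were not called. Over all genes tested, 12.7% were called higher, 13.7% lower and 26.4% either way. The called rises ran from 0.62 to 2.86 on the log2 scale, with limma adjusted p from 7.77e-05 to 0.0278. REV3L alone had a change below 0, and at an unadjusted p under 0.05 the count of lower targets was also 0. The median change of the 32 was 1.06, against 0.02 over all genes. On 26 of the 32 the 3 mimic arrays all lay above the 3 control arrays, which was so for 23.0% of all genes, and on none did they all lie below, which was so for 22.1%. A rise of at least 2-fold was called for 17 of the 32, against 3.03% of all genes, and 8 of the 32 stood among the 100 largest rises, a group that holds 0.932% of the genes. PADI4 and ACER2 were detected on all mimic arrays and on 1 control array each, so they entered the test through the mimic arrays. Without them, 23 of 30 targets were called higher, 15 by at least 2-fold, 7 stood among the 100 largest rises and the median change was 1.02. The background count itself moved with single arrays: 2833 genes were called in all, but 1844 without control replicate 1 (818 higher) and 1879 without mimic replicate 1 (849 higher), while 902 were higher without control replicate 3. The targets called higher numbered 24 or 25 whichever array was left out, and none was called lower.

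**Figure D1:**
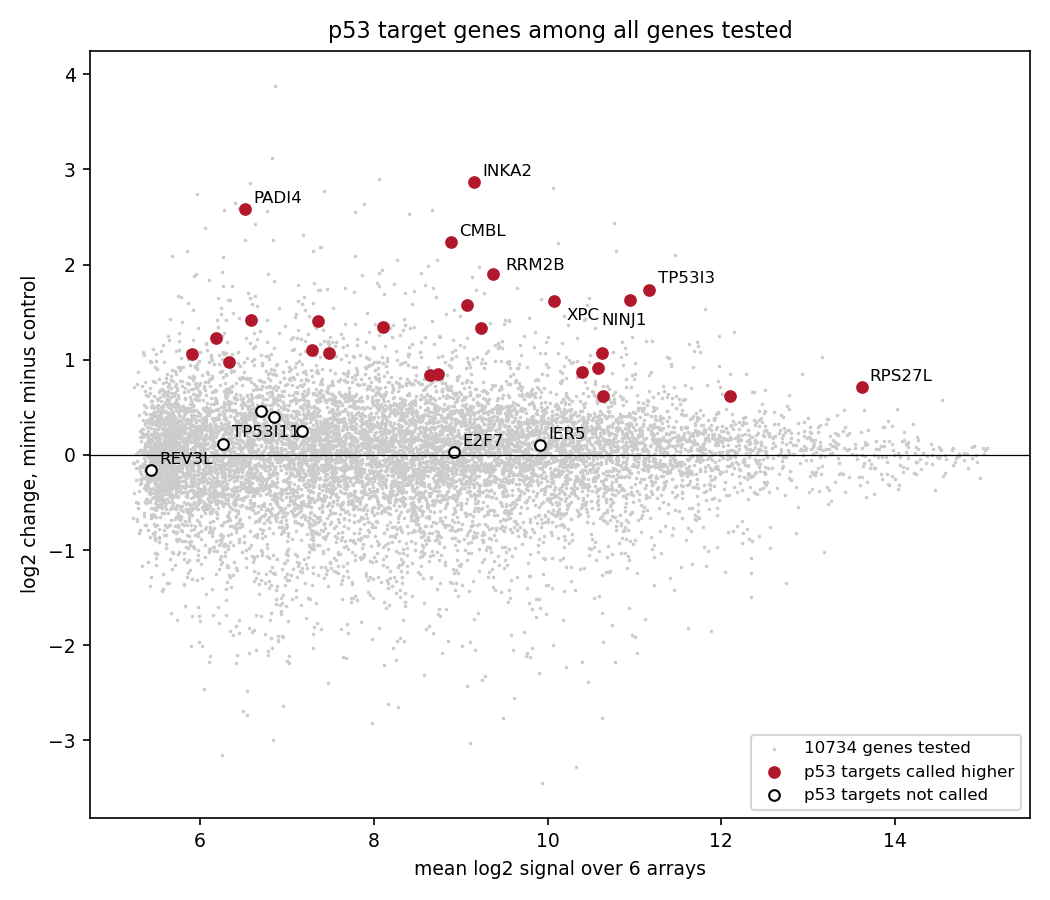
Mean log2 signal over the 6 arrays (x axis) against the log2 change, mimic minus control (y axis), for the 10734 genes tested (grey points). The 25 targets called higher (red) lie between 0.62 and 2.86, and the 7 not called (open circles) between -0.16 and 0.46.

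Of the 32 measured targets, 29 were detected on all 6 arrays, and 23 of these 29 were called higher, against 13.1% of the 9066 genes detected on all 6. REV3L was detected on 1 mimic array and 2 control arrays. RNA came from whole cultures, in which a larger share of cells expressing a gene and more of its RNA per cell cannot be told apart.

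The lowest detected signal was 5.44 to 5.51 on the log2 scale, and 17848 to 18652 of 47323 probes were detected per array. Over detected probes, r was 0.982 to 0.990 for array pairs within a group and 0.953 to 0.966 for pairs across groups. Of 10 osteoblast markers 7 were measured, RUNX2 and TNFRSF11B called higher, SPP1 and SPARC lower and BGLAP, ALPL and COL1A1 neither, and the mean log2 signal of the list was 8.55 to 8.65 on mimic arrays and 8.64 to 8.72 on control arrays. The markers SP7, IBSP and COL1A2 were not detected on enough arrays to be measured. Of 7 epithelial markers 4 were measured, EPCAM called lower and KRT8, KRT14 and KRT18 not called, with list means of 7.28 to 7.61 on mimic arrays and 7.68 to 8.19 on control arrays. The leukocyte genes PTPRC, CD3E, CD14 and LYZ and the endothelial genes PECAM1, CDH5 and KDR were not measured either, since they were detected on too few arrays. CD68 alone stood for the leukocyte list, at 6.96 to 7.77 on mimic arrays and 6.90 to 7.59 on control arrays. The endothelial list was measured by TEK, not called, and VWF, called lower and detected on no mimic array, with means of 5.00 to 5.32 on mimic arrays and 5.14 to 6.11 on control arrays. The part of these marker differences in the results was not tested.

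**Figure D2:**
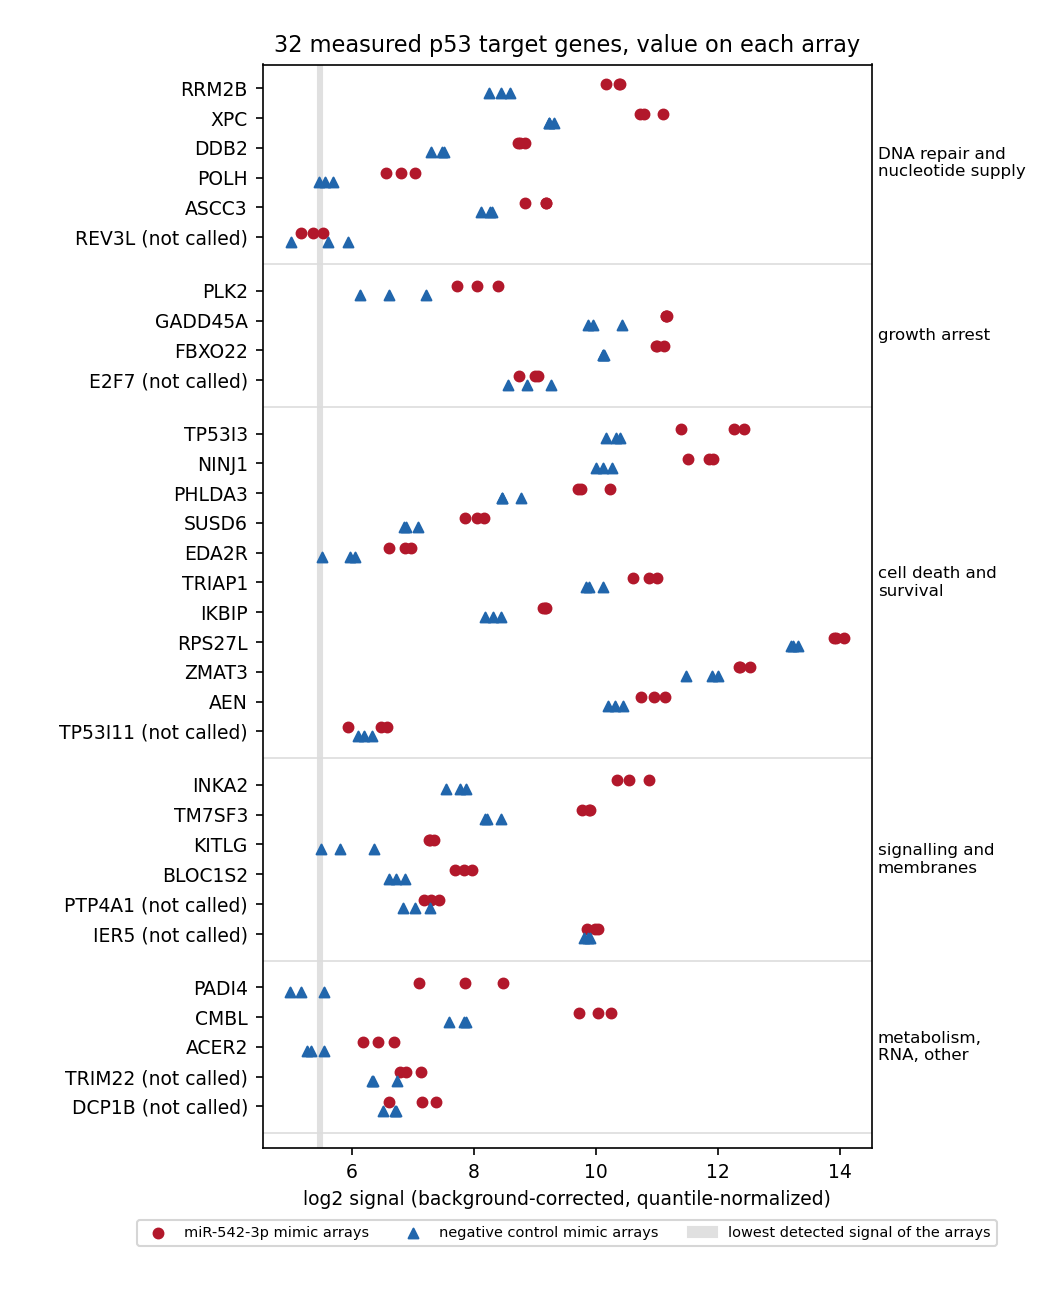
Log2 signal (x axis) of each of the 32 measured targets (rows, grouped by role) on the 3 mimic arrays (red circles) and the 3 control arrays (blue triangles), with the lowest detected signal of the arrays as a grey band. The mimic arrays lie to the right of all control arrays in 26 rows, and the groups overlap in the other 6.

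Promoter sequence from RefSeq (GRCh38.p14) was at hand for 30 of the 37 targets and was searched because p53 acts through DNA. The window held the 250 bases before each annotated start, and some genes have several starts. The 10-base p53 half-site consensus, which reads the same on both strands, had an exact match in 3 of 19 targets called higher (PLK2, AEN and RPS27L), in 0 of 6 not called and in 2 of 5 not measured (RAP2B and FDXR). Over all 27305 genes with a window the share was 6.80%. A pair of half-sites, with up to 13 bases between them and at most 2 mismatches over 20 bases, was found in AEN among the 19 called targets, in PTP4A1 and DCP1B among the 6 not called, and in FDXR, against 8.12% of all genes. An exact half-site can be 1 arm of such a pair, as in AEN. The matches describe these windows alone, since p53 sites of many targets lie in introns or further away.

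The matching stretches of 3 called targets, and of DCP1B as one that was not called, are shown 5′ to 3′ on the gene's own strand. Capitals mark exact half-sites and the arms of pairs. The pairs of AEN and DCP1B each hold 2 mismatches, and DCP1B has no exact half-site. In AEN the pair lies within chr15:88621291-88621339 (plus strand) and starts 34 bases before the gene's start. The half-site of PLK2 is within chr5:58460189-58460238 (minus strand), 132 bases before the start. The RPS27L half-site is within chr15:63157507-63157556 (minus strand), 59 bases before the start, and the DCP1B pair within chr12:2004635-2004684 (minus strand), 212 bases before it.
AEN: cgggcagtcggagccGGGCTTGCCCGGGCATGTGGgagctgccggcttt
PLK2: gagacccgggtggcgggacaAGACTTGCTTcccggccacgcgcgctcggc
RPS27L: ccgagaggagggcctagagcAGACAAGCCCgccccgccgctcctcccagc
DCP1B: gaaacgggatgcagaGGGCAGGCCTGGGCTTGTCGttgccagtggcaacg

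Among 6 genes of DNA repair and nucleotide supply, 5 rose, 4 of them at least 2-fold. RRM2B, the p53-inducible small subunit of ribonucleotide reductase, which makes the building blocks of DNA, had the largest rise of this group. Its log2 signal was 10.40, 10.17 and 10.39 on the mimic arrays, against 8.59, 8.24 and 8.44 on the control arrays. The groups lay far apart, and the change of 1.90 ± 0.14 (SE) was a 3.72-fold rise (limma adjusted p = 0.000169). XPC, which finds damaged bases for nucleotide excision repair, had 10.73, 10.79 and 11.11 on the mimic arrays, against 9.23, 9.31 and 9.24 on the control arrays. That was a 3.07-fold rise (limma adjusted p = 0.000276), with the control arrays close together and mimic replicate 3 above the other mimic arrays.

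DDB2, which binds ultraviolet lesions and passes them to XPC, rose 2.54-fold to 8.77 ± 0.06 with the mimic, against 7.43 ± 0.12 in controls (SD, n = 3 each). POLH encodes the polymerase eta that copies past ultraviolet damage. It was dim, at 6.55, 6.80 and 7.03 on mimic arrays and 5.46, 5.55 and 5.68 on control arrays, and rose by 1.23 ± 0.15 (SE). Its second probe also rose, by 0.93 ± 0.17. ASCC3, a helicase used in the repair of alkylated DNA, rose by 0.84 ± 0.14.

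REV3L, the catalytic subunit of another damage-bypass polymerase, zeta, was not called. It had 5.37, 5.52 and 5.17 with the mimic and 5.62, 5.00 and 5.93 in controls, close to the lowest detected signal, and its change of -0.16 had a 95% confidence interval from -0.70 to 0.37. These limma intervals are per gene and are not adjusted for the number of genes.

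Of 6 genes tied to growth arrest, 4 were measured and 3 rose. PLK2, a polo-like kinase induced by stress, was variable in both groups. It had 7.72, 8.39 and 8.05 on mimic arrays, against 7.22, 6.60 and 6.13 on control arrays. The groups spread widely without overlapping, and the change was 1.40 ± 0.28 (SE; limma adjusted p = 0.00918). GADD45A, a stress sensor that restrains cell division, had 11.15, 11.15 and 11.17 with the mimic, against 10.43, 9.96 and 9.88 in controls. The 3 mimic arrays were nearly identical, with an SD of 0.01, against 0.30 in controls, and both detected probes rose (1.07 ± 0.16 and 1.11 ± 0.15).

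FBXO22, the substrate-binding part of a ubiquitin ligase, rose by 0.92 ± 0.11 (SE) by its brightest probe, which gave 11.04 ± 0.06 with the mimic and 10.12 ± 0.01 in controls (SD, n = 3 each). A dimmer probe changed by 0.15 ± 0.17 and was not called. E2F7, a repressor of cell-cycle genes, had 9.01, 8.74 and 9.05 on mimic arrays and 8.88, 8.55 and 9.27 on control arrays. The groups overlapped and the change was 0.03, with a 95% confidence interval from -0.42 to 0.48. The related kinase PLK3 was detected on 1 mimic array and no control array, with raw intensities of 177.0, 128.8 and 146.9 on mimic arrays and 135.2, 109.4 and 130.7 on control arrays.

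Among 12 genes of cell death and survival, 11 were measured, 10 rose and TP53I11 was not called. TP53I3, a quinone oxidoreductase linked to oxidative stress, had 12.27, 11.40 and 12.44 on mimic arrays, against 10.17, 10.33 and 10.40 on control arrays. Mimic replicate 2 lay below the other mimic arrays and still above all controls, and the rise was 3.33-fold (limma adjusted p = 0.00245). A dimmer probe of the gene was detected on all mimic arrays and no control array, and with the mimic its signal was higher by at least 2.61-fold. Such a bound sets the mimic mean against a control mean in which each array enters with its lowest detected signal, or with the probe's own where that is higher.

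NINJ1, a membrane protein that ruptures the plasma membrane in lytic cell death, had 11.85, 11.51 and 11.93 with the mimic, against 10.12, 10.01 and 10.27 in controls. The groups lay well apart, and the change was 1.63 ± 0.15 (SE; limma adjusted p = 0.000365). PHLDA3, an inhibitor of AKT at the membrane, rose by 1.33 ± 0.18, and SUSD6, a membrane protein with a sushi domain, by 1.07 ± 0.14. EDA2R, a receptor of the TNF receptor family, rose by 0.97 ± 0.18, at 6.81 ± 0.18 with the mimic and 5.84 ± 0.29 in controls (SD, n = 3 each), the control value being near the detection limit.

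TRIAP1, a small inhibitor of apoptosis, and IKBIP, named for its binding to an I-kappa-B kinase, rose by 0.87 ± 0.15 and 0.84 ± 0.12 (SE). RPS27L, a p53-induced copy of the ribosomal protein RPS27, was the brightest of all 32 targets. It had 13.94, 13.90 and 14.07 on mimic arrays, against 13.24, 13.32 and 13.21 on control arrays. The arrays of each group lay close together, and the 1.64-fold rise was called (limma adjusted p = 0.00393).

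ZMAT3, an RNA-binding zinc-finger protein, and AEN, an apoptosis-enhancing nuclease, had the smallest rises called. ZMAT3 had 12.35, 12.36 and 12.53 with the mimic, against 12.01, 11.47 and 11.90 in controls, a change of 0.62 ± 0.16 (SE; limma adjusted p = 0.0278). Its second probe rose by 1.61 ± 0.15, with 12.21, 11.84 and 12.23 on mimic arrays, against 10.41, 10.45 and 10.59 on control arrays, and the dimmest of its detected probes changed by 0.39 and was not called. AEN had 11.14, 10.96 and 10.74 with the mimic, against 10.32, 10.45 and 10.21 in controls, a change of 0.62 ± 0.15 (limma adjusted p = 0.0178). Single arrays decided both calls: that of ZMAT3 ended without mimic replicate 1 or 3 or control replicate 2 or 3 (limma adjusted p 0.0548 to 0.0839), and that of AEN without mimic replicate 1 or control replicate 1 or 3 (0.0601 to 0.0676). The p53-inducible TP53I11 had 6.48, 5.93 and 6.58 with the mimic and 6.20, 6.33 and 6.09 in controls, a change of 0.12 (95% confidence interval -0.31 to 0.55). SPATA18, which acts in mitochondrial quality control, was detected on no array, with raw intensities of 108.6 to 114.5 on mimic arrays and 106.4 to 124.6 on control arrays.

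Of 7 genes of signalling and membranes, 6 were measured and 4 rose, each at least 2-fold. INKA2, an inhibitor of the actin-regulating kinase PAK4, had the largest change of the 32 targets and the fourth largest rise among all genes tested. Its log2 signal was 10.54, 10.35 and 10.88 on mimic arrays, against 7.77, 7.54 and 7.87 on control arrays. No array came near the other group, and the rise was 7.28-fold (limma adjusted p = 7.77e-05). All 3 of its detected probes rose, by 2.86, 2.20 and 1.78.

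TM7SF3, a membrane protein with several transmembrane segments, rose by 1.57 ± 0.13 (SE), with 9.86 ± 0.08 in mimic cells and 8.29 ± 0.15 in control cells (SD, n = 3 each). KITLG, the secreted ligand of the receptor KIT, had 7.28, 7.26 and 7.35 with the mimic, against 5.81, 6.36 and 5.49 in controls. The mimic arrays lay close together and the control arrays spread near the detection limit, and the rise was 1.41 ± 0.21. A dimmer KITLG probe, detected on 1 control array, changed by 0.53 and was not called, and the receptor KIT was not detected on enough arrays to be measured. BLOC1S2, a subunit of complexes that position lysosomes, rose by 1.11 ± 0.13.

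PTP4A1, a phosphatase tied to cell growth, and IER5, an early response gene, were not called. PTP4A1 had 7.30, 7.43 and 7.19 on mimic arrays and 7.28, 7.04 and 6.84 on control arrays, a change of 0.25 (95% confidence interval -0.09 to 0.60). IER5 had 9.98, 10.04 and 9.86 with the mimic and 9.80, 9.91 and 9.87 in controls, a change of 0.10 (-0.17 to 0.37), so at a well-detected level its interval held no 2-fold rise. The small GTPase RAP2B was detected on no array by either probe.

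The remaining genes act in metabolism, RNA turnover or protein modification. Of 6, 5 were measured, 3 rose and 2 were not called. On all 6 arrays 3 were detected, of which 1, CMBL, was called higher. The other rises, of PADI4 and ACER2, entered the test through the mimic arrays. CMBL, a cytosolic hydrolase, had 10.04, 9.72 and 10.25 on mimic arrays, against 7.60, 7.87 and 7.83 on control arrays. The groups lay far apart, and the rise was 4.71-fold (limma adjusted p = 0.000169). PADI4, which turns arginine into citrulline in proteins such as histones, had 7.85, 7.10 and 8.48 with the mimic, against 5.17, 5.55 and 4.99 in controls. Its mimic arrays spread more than those of any other measured target (SD 0.69), and the change was 2.58 ± 0.32 (SE; limma adjusted p = 0.00122). Since only 1 control array detected it, the size is uncertain, and with each control array raised to at least its lowest detected signal the rise was 5.01-fold in place of 5.97-fold. ACER2, a ceramidase of the Golgi, rose by 1.06 ± 0.16, also with 1 control array detected, and on raised control arrays the rise was 1.93-fold in place of 2.08-fold. Its second probe, likewise detected on 1 control array, rose by 0.79 ± 0.21.

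DCP1B, a cofactor of mRNA decapping, had 6.62, 7.38 and 7.15 on mimic arrays and 6.50, 6.73 and 6.71 on control arrays, a change of 0.40 (limma adjusted p = 0.190). Without mimic replicate 1, the lowest, it was called higher (0.62, limma adjusted p = 0.0412). TRIM22, an interferon-inducible ubiquitin ligase, had 7.14, 6.89 and 6.78 with the mimic and 6.34, 6.34 and 6.74 in controls. The lowest mimic array lay barely above the highest control array, and the change of 0.46 missed the threshold (limma adjusted p = 0.0742). It passed without control replicate 3 (0.60, limma adjusted p = 0.0448), with array weights (0.0183) and when only genes detected on all 6 arrays were tested (0.0485).

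**Figure D3:**
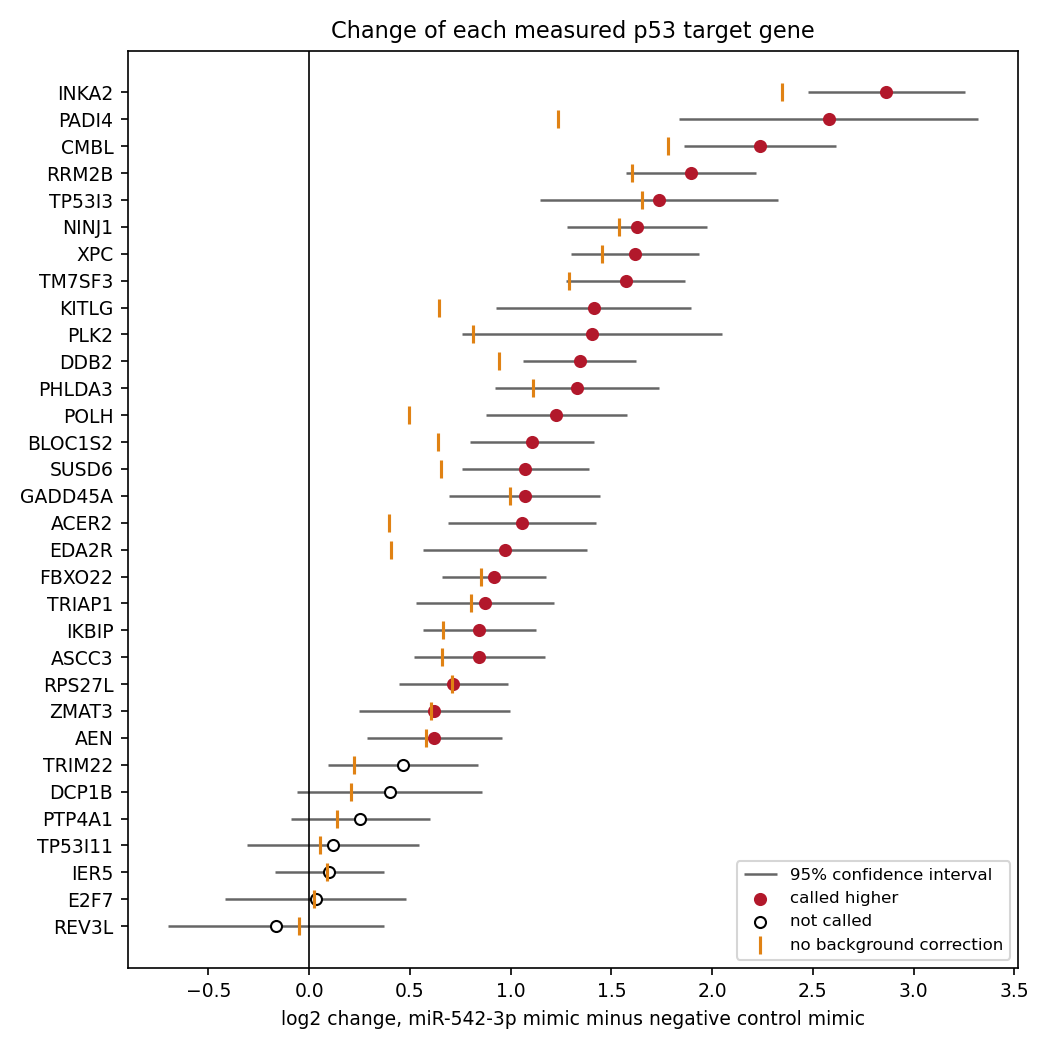
Log2 change of each measured target, mimic minus control (x axis), with the 95% confidence interval from limma, sorted by size. Red points were called higher, open points were not, and orange bars give the change with no background correction. The bar lies furthest to the left of the point for the dim genes PADI4, KITLG and POLH.

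The size of a rise depended on the background step for dim genes. With no background correction the same 25 targets were called higher, and 9 of them, in place of 17, rose at least 2-fold. In that setting 1746 of 10734 genes were called higher, against 1358 in the main one. The share of all genes that rose at least 2-fold in that setting was not counted. For 8 of the 25 the main change was over 1.5 times that without the step. These were POLH (0.49 without it), PLK2 (0.81), EDA2R (0.41), SUSD6 (0.66), KITLG (0.64), BLOC1S2 (0.64), ACER2 (0.40) and PADI4 (1.23). All 8 had control means of at most 6.95, and the other 17 had control means of at least 7.43. INKA2 changed most in both settings (2.34 without the step), and the bright RPS27L hardly moved (0.71).

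Of the 32 measured targets, 13 had more than 1 detected probe. Their 18 dimmer probes all had changes above 0 and 10 were called higher, none lower. Among them, a probe each of TP53I3 and ASCC3 was detected on all mimic arrays and no control array. A probe each of ACER2 and KITLG was detected on all mimic arrays and 1 control array. These probes passed the filter through the mimic arrays, and all but that of KITLG were called higher. Of the 18, 16 belong to targets called higher by the brightest probe, so they measure the same genes again. The share over all dimmer probes of the array was not counted. The size differed between probes of ZMAT3, FBXO22 and KITLG as given above. For ASCC3 the brightest of 4 probes and 1 detected on the mimic arrays alone were called higher, that probe by at least 1.33-fold, and the other 2 (0.51 and 0.35) were not. IKBIP had probes at 0.84, 0.90 and 0.49, the last not called. With the mean of a gene's probes, FBXO22 changed by 0.54 and kept its call (limma adjusted p = 0.0217).

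**Figure D4:**
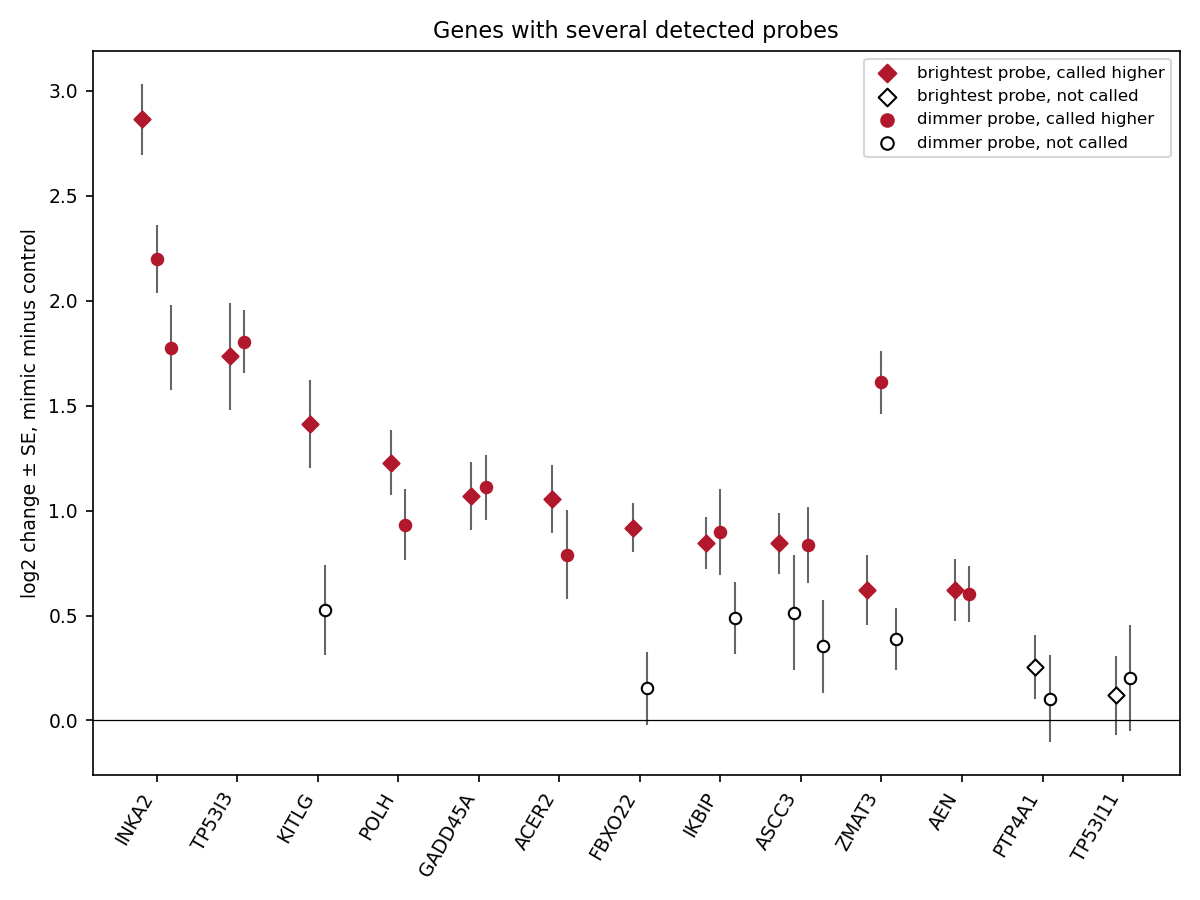
Log2 change ± SE, mimic minus control (y axis), of every detected probe of the 13 targets with several (x axis), with diamonds for the brightest probe and circles for dimmer ones, filled where called higher. All points lie above 0, and the probes of ZMAT3, INKA2 and KITLG lie furthest apart.

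The arrays of 1 group did not contribute alike. Mimic replicate 3 had the highest mimic value for 21 of the 32 targets, and mimic replicate 2 the lowest for 18. Among all genes called higher, replicate 3 was the highest mimic array for 53.7%, and replicate 2 was again the one most often lowest, so both patterns were also present among all genes called higher. In controls the highest values were spread over the arrays (10, 12 and 10 targets). The median SD within a group was 0.18 for mimic arrays and 0.14 for control arrays over the 32 targets, against 0.17 and 0.16 over all genes.

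Relatives of the targets that are not on the list were set beside them, together with the partners DDB1, RRM1 and KIT. They were not chosen for lacking control by p53, and TP53I13 is named as p53-inducible. Of these 27 genes 20 were measured, 4 rose, 3 fell and 13 were not called, with a median change of -0.02. Over all genes tested, 12.7% were called higher and 13.7% lower, with a median change of 0.02. RRM2, the small ribonucleotide reductase subunit of dividing cells, fell by 0.76 ± 0.17 (SE), and the large subunit RRM1 fell by 0.47 ± 0.12, while RRM2B rose by 1.90. The log2 signal of RRM2 was 9.10, 9.32 and 8.81 on mimic arrays, against 10.07, 9.73 and 9.71 on control arrays, without overlap and opposite in direction to RRM2B. RPS27 changed by 0.00 ± 0.11 beside the rise of its copy RPS27L. PLK1 (-0.15), PLK4 (-0.21), GADD45B (-0.45), ACER3 (-0.38), PHLDA2 (-0.23), RAP2C (-0.08) and TRIM5 (-0.04) were not called, nor were NINJ2 (0.07), BTG1 (0.23), PHLDA1 (0.52), SUSD5 (0.28) and DDB1 (0.32). INKA1, the relative of INKA2, rose by 1.17 ± 0.28, RAP2A by 0.72 ± 0.14 and BTG3 by 0.70 ± 0.13. TP53I13 (0.46) and DCP1A (-0.56) passed narrowly (limma adjusted p = 0.0495 and 0.0487).

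The difference between a target's change and its relative's was tested in 10 pairs with a two-sided exact permutation test over the 6 arrays, which cannot go below 0.1. In 9 pairs every mimic array lay above every control array and the exact p was 0.1 (0.111 adjusted over the 10 pairs), so none could pass. The targets of the pairs, except DCP1B and TRIM22, were already called higher in these data. How often other pairs of genes separate in this way was not counted. The difference was 2.66 for RRM2B over RRM2, 1.69 for INKA2 over INKA1, 1.56 for NINJ1 over NINJ2 and also for PLK2 over PLK1, and 1.52 for GADD45A over GADD45B. It was 0.71 for RPS27L over RPS27. For TRIM22 over TRIM5 the arrays overlapped (0.50, exact p = 0.2). The 10 pairs were chosen by hand, and some measured genes of the list of relatives were in no pair. Of those, DDB1 and SUSD5 changed less than the targets DDB2 and SUSD6. TP53I13 (0.46, called higher) changed more than the target TP53I11 (0.12, not called).

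**Figure D5:**
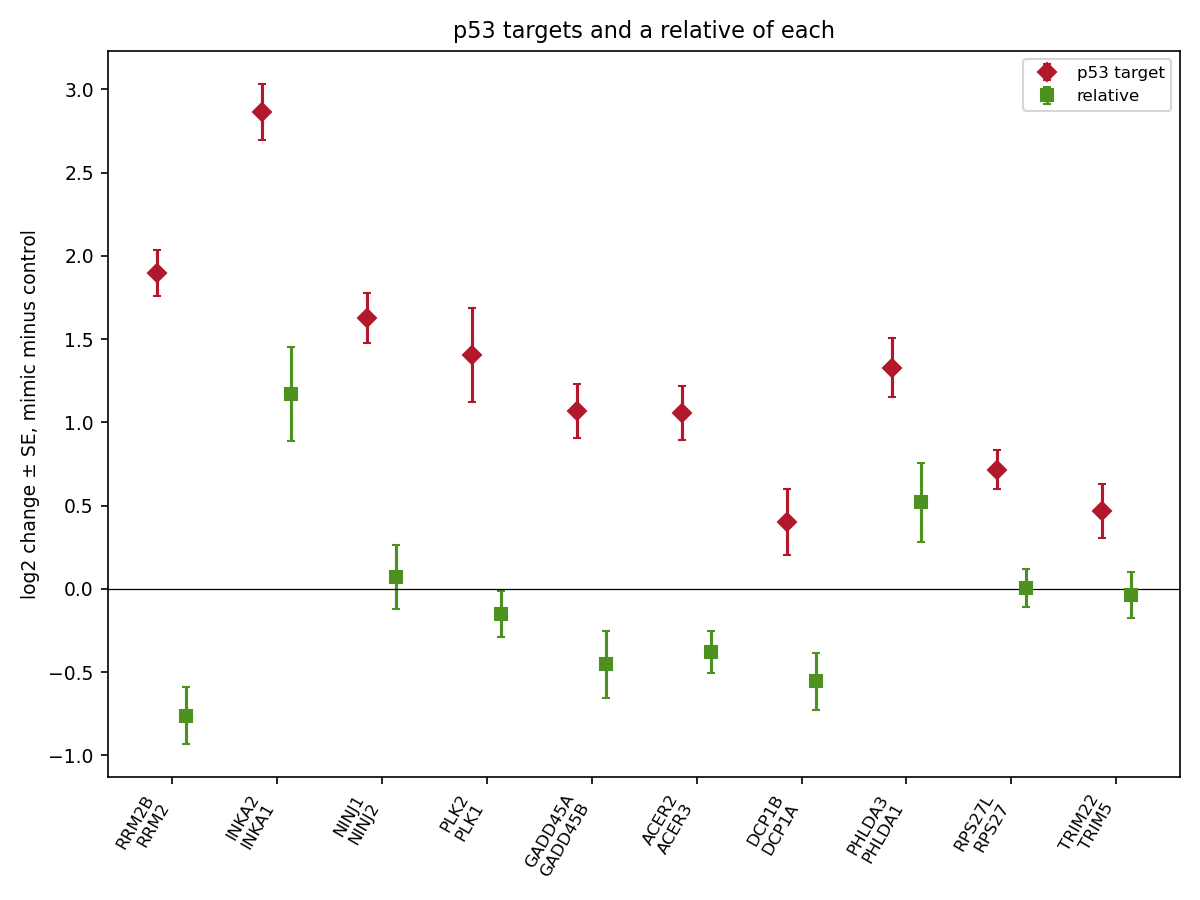
Log2 change ± SE, mimic minus control (y axis), of 10 targets (red diamonds) and a relative of each (green squares), in order of the difference. In these 10 chosen pairs the target lies above its relative, by 2.66 for RRM2B over RRM2 and by 0.50 for TRIM22 over TRIM5.

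The rest of the pathway was followed with a list of 35 other p53 genes, of which 29 were measured. With the mimic 16 were called higher, 2 lower and 11 not, with a median change of 0.97. Over all genes tested, 12.7% were called higher and 13.7% lower. Of the 25 detected on all 6 arrays, 13 were called higher, against 13.1% of all genes so detected. MDM2, the ubiquitin ligase that holds p53 in check, rose by 1.44 ± 0.22 (SE). CDKN1A, the cell-cycle inhibitor p21, rose by 1.03 ± 0.16 at its brightest probe and by 2.38 ± 0.13 at its dimmer probe. The smallest adjusted p of the others were those of TIGAR, CYFIP2, SESN1 and DRAM1, which rose by 2.23, 2.44, 2.53 and 2.09. The 4 genes that follow were chosen after their values were seen. The 2 that fell were PMAIP1, which encodes the cell death protein NOXA, by 0.81 ± 0.20, and GTSE1, a regulator of p53 in G2, by 0.85 ± 0.15. Among those called higher, FAS, a death receptor, and GDF15, a secreted stress factor, were detected on no control array and were higher with the mimic by at least 2.18-fold and 10.2-fold.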

How the data were processed

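The authors deposited a table of non-normalized intensity values with a detection p-value per probe, per the file headers, for 6 Illumina bead arrays hybridised with biotin-labelled cRNA, per the labels' protocols. The authors also deposited log2 values in another table, whose columns share nearly 1 distribution and follow log2 intensity (r above 0.9999), and it served as an alternative. Scanner software, slide and earlier background steps were not given in the sources used here, so batches went untested.

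In R 4.3.3 the nec function of limma 3.58.1 removed background (offset 16, with the mean and SD of negative controls taken from the detection p). Quantile normalization and log2 followed. Gene symbols came from GEO's annotation of the array, checked by Entrez identifier against RefSeq. Probes detected on at least 3 arrays were kept, the brightest per gene, with probes of no single gene as rows of their own. Groups were compared with lmFit and eBayes, no covariate, and Benjamini-Hochberg adjustment over 14775 rows. Dimmer probes come from a fit on all detected probes. The fit was tested on simulated data. The number of arrays limits the precision.

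The members and lists were chosen with earlier results of these data known. Named genes are all members, measured relatives, detected markers, MDM2 and CDKN1A, and 4 other p53 genes by smallest adjusted p. Outside this rule, 4 further p53 genes and the markers and relatives below detection are named after their values were seen. The alternatives changed the background step, the normalization, the filter, the probe rule, the variance model or the threshold, weighted arrays, used the replicate number as a block, took the deposited log2 values, or left out each array in turn.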

Additional observations from a re-analysis of the deposited data

How the results depend on the processing

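Of the 32 measured targets, 28 kept their side of the threshold under every alternative run that gave them a value, up to 19 each. No called target changed direction. The exceptions were ZMAT3, AEN, DCP1B and TRIM22. The targets called higher numbered 23 to 26 over all alternatives and those called lower 0. ZMAT3 also lost its call with no filter on dim probes (limma adjusted p = 0.0591). ZMAT3 and AEN lost theirs at an adjusted p under 0.01, where 23 targets stayed higher, and with treat against a 1.2-fold change (adjusted p = 0.170 and 0.126).

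The median change of the measured targets was 1.06. It was 0.66 with no background correction, 0.65 with the deposited log2 values, 0.87 with an offset of 50, 0.97 with no filter on dim probes and 0.97 with the mean of a gene's probes. Leaving out 1 array gave 0.98 to 1.12. With no filter, PLK3 changed by 0.56 (limma adjusted p = 0.167), and it stayed below detection in controls.

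Genes called over the whole array numbered 2833, 1430 at an adjusted p under 0.01, 1345 with treat, and 1844 to 2819 when 1 array was left out. More were called with array weights (3838, of which 1888 higher), no background correction (3496), the deposited log2 values (3491), trend and robust eBayes (3475) and an offset of 50 (3264). Leaving out PADI4 and ACER2, and raising their control arrays to the detection limit, were chosen after seeing the data.

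With the replicate number as a block, 25 targets were called higher and 2657 genes were called in all, and no target's call changed. Deviations of same-numbered arrays from their group means correlated at 0.02, 0.08 and 0.10, against -0.13 to 0.05 for arrays of different numbers. Not every array correlated best with its own number. With 3 arrays per group these values cannot decide whether same-numbered arrays were paired.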
